A study of Sus scrofa with 6 samples.

Results

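The MAX, MXD and MYC network was followed in porcine 2-cell embryos with and without knockdown of SIN3A. Its members were chosen by name, as the 10 genes MAX, MXD1, MXD3, MXD4, MXI1, MNT, MGA, MLX, MYC and MYCN. Of the 17678 genes in the deposited table, 9 carried one of these names, and the remaining member, MXI1, was found through the reference name of an identifier (ENSSSCG00000022128) that the table lists without a name. Matured oocytes of crossbred pigs were injected with negative-control siRNA (NC) or with SIN3A siRNAs directed at 3 sites (SIN3A KD), activated without sperm and collected 32 h later, with 3 replicates of 20 pooled embryos in each group. All embryos were thus parthenogenetic, so they carried maternal genomes only. The values are normalized abundances per gene. They were treated as read estimates scaled between libraries and not divided by gene length, and the levels per kb below rest on this reading.

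MAX is a basic helix-loop-helix leucine zipper protein that pairs with other members of the network and binds the E-box CACGTG. MYC and MYCN pair with MAX to activate transcription. MXD1, MXD3, MXD4, MXI1 and MNT pair with MAX on the same sites and recruit SIN3A, the scaffold of a histone deacetylase complex, through a short N-terminal helix called the SIN3 interaction domain. MGA is a large MAX partner that works with a Polycomb complex, and MLX is a relative of MAX that serves MLXIP and MLXIPL as well as some MXD proteins. The comparison asks whether the transcripts of these SIN3A recruiting proteins and of their opponents differed once SIN3A was depleted.

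The stretch that links 5 of the members to SIN3A is shown first because it is the direct tie between the network and the targeted gene. The best shared window of 13 residues was sought in the first 40 residues of MXD1 and the first 120 of MXD3, MXD4, MXI1 and MNT. Its coding bases are given below from the RefSeq annotation of Sscrofa11.1, with capitals for codons whose residue equals that of MXD1.
MXD1: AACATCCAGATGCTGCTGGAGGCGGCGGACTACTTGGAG
MXD3: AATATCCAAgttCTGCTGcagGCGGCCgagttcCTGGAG
MXD4: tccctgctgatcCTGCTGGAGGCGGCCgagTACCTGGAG
MXI1: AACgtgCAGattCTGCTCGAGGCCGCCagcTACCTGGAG
MNT: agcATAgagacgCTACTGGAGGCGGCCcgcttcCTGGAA

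The window lies at chr3:72544995-72545033 (minus strand) for MXD1, chr2:80637408-80637446 (plus strand) for MXD3, chr8:1216594-1216632 (minus strand) for MXD4, chr14:120644146-120644184 (plus strand) for MXI1 and chr12:48486322-48486360 (minus strand) for MNT, within 1 coding exon in each. It covers residues 8 to 20 in MXD1, 7 to 19 in MXD3, 5 to 17 in MXD4 and 2 to 14 in MNT. In MXI1 it lies further in, at residues 68 to 80 of a product of 291 residues. MXI1 shared 10 of the 13 residues with MXD1, MXD3 shared 9, and MXD4 and MNT shared 8 each. The same residue stood in all 5 proteins at 6 of the 13 positions. The window was picked for this likeness, so the shares are a description. In MXI1 it was found in the products of 2 of 3 RefSeq mRNAs and in MXD3 also in 2 of 3, while the deposited values are sums per gene and do not tell these isoforms apart. Over their whole sequences, MAX, MLX and MYC reached at most 4 matching residues, MYCN 5 and MGA 6.

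The E-box to which these proteins bind was also looked for around the members' own start sites, from 250 bases before to 50 bases after the start of the longest RefSeq mRNA. The palindromic motif CACGTG occurred in 3 of the 10 members, MAX, MXD4 and MNT, and in 7.22% of 20628 RefSeq genes. A match is a description of the letters and not a bound site. The 3 matches are shown in the direction of transcription with the motif in capitals.
MAX: cccagctccctcCACGTGtcctgtcttccc
MXD4: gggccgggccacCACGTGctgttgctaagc
MNT: ccccacccaggcCACGTGtgcgctcgccgt

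The printed bases are chr7:89168471-89168500 for MAX, chr8:1217002-1217031 for MXD4 and chr12:48486884-48486913 for MNT, all on the minus strand, and the motif began at positions -223, -212 and -164 from the start site.

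The libraries were checked against their labels before the members were compared. SIN3A had an abundance per kb of mRNA of 6548, 5952 and 5679 across the NC replicates (1 to 3 in order) and of 573, 189 and 731 across the KD replicates, so that every KD library lay far below every NC library. The spacing of low values placed the depth at about 7800000 to 12900000 reads per NC library and 10200000 to 15800000 per KD library. Oocyte markers summed to 87522 to 97000 in NC and 85028 to 105354 in KD libraries over 10 genes found, with none at 0. Cumulus and granulosa cell markers summed to 183 to 303 in NC and 178 to 255 in KD libraries over 11 genes found, and none was at 0 in all 6 libraries, although 3 were below 10 in each of them and PTX3 was listed at 0 in the 3 KD libraries. VIM made the largest part of these sums, with a mean of 122 in NC and 96.2 in KD libraries. The part of these markers in the results was not tested. For these markers, fewer cumulus or granulosa cells and less RNA per cell cannot be told apart in pooled embryos.

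No member passed the test between NC and KD embryos. MXD1, MLX, MAX, MXI1, MNT and MGA had means above 100, and their log2 fold changes lay between -0.17 for MXI1 and 0.07 for MNT. MXD3, MXD4, MYC and MYCN were low in both groups. Of the 8 members that averaged 10 or more, 0 passed an adjusted p below 0.05 in limma with Benjamini-Hochberg adjustment over all genes tested, and 0 had an unadjusted p below 0.05. Over all 11986 tested genes the shares were 0.159% and 4.61%. In 0 of the 10 members did the 3 KD values lie wholly above or below the 3 NC values, against 9.79% of all tested genes. Of the 8 tested members, 3 had a positive and 5 a negative log2 fold change, with a median of -0.04, and the median over all tested genes was 0.0026. The adjusted p was 0.997 for all 8. The sign was not stable for MXD3, MNT, MLX and MGA among the tested members. It turned for MXD3 without NC replicate 3 (-0.0043), for MNT and MLX without NC replicate 1 (-0.0079 and -0.065), for MLX without KD replicate 1 (-0.028), and for MGA without NC replicate 1 or KD replicate 3 (0.0027 and 0.0017). A correction for GC content and length also turned MNT, to -0.016.

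**Figure D1:**
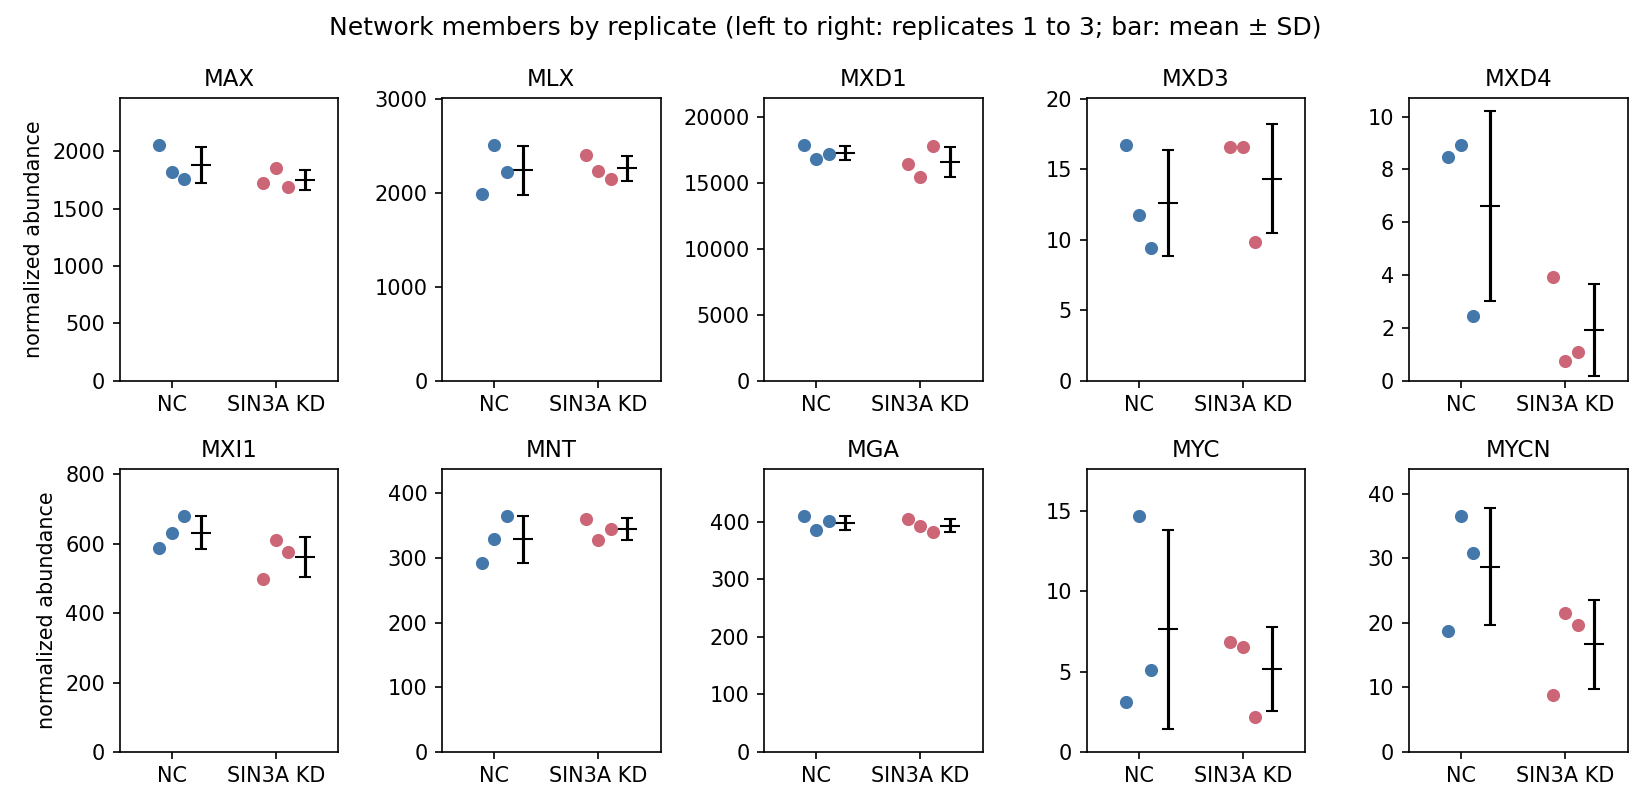
Normalized abundance (y axis, from 0, with its own scale for each gene) of the 10 members in the 3 NC and 3 SIN3A KD replicates, with the mean and SD as a bar beside the points. The groups overlap in every panel, and MXD1 lies between 15489 and 17875 while MXD4 lies below 10.

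MAX (ENSSSCG00000037267) is the shared partner without which neither MYC nor MXD proteins bind DNA well. It lies on chromosome 7 from 89142966 to 89168265 on the minus strand, with 3 RefSeq mRNAs. Its abundance was 2052, 1821 and 1759 across the NC replicates (1 to 3 in order) and 1720, 1849 and 1684 across the KD replicates. NC replicate 1 was the highest library, and KD replicate 2 lay within the range of NC. NC embryos averaged 1877 ± 155 and KD embryos 1751 ± 87.0 (mean ± SD, n = 3 each). On the log2(value + 1) scale the fold change was -0.10 with a standard error of 0.09, and its 95% confidence interval of -0.30 to 0.10 corresponds to a KD level between 81.3% and 107% of NC.

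MLX (ENSSSCG00000017397) lies on chromosome 12 from 20249760 to 20257543 on the minus strand. Its abundance was 1981, 2505 and 2221 in the NC replicates and 2403, 2225 and 2142 in the KD replicates, so all KD values fell inside the NC range. Its log2 fold change was 0.02, and the 95% confidence interval of -0.19 to 0.23 corresponds to a KD level from 87.5% to 117% of NC.

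MXD1 (ENSSSCG00000008334), which replaces MYC on MAX as cells stop dividing and differentiate, was by far the most abundant member. It lies on chromosome 3 from 72517829 to 72545302 on the minus strand and has 1 RefSeq mRNA of 6 exons. Its abundance was 17875, 16834 and 17211 in the NC replicates and 16454, 15489 and 17813 in the KD replicates. The lowest library was KD replicate 2, and KD replicate 3 lay just under the highest NC library. NC embryos averaged 17307 ± 527 and KD embryos 16585 ± 1167 (mean ± SD, n = 3 each), or 95.8% of NC. Its log2 fold change was -0.06 (standard error 0.08, 95% confidence interval -0.24 to 0.11), which corresponds to a KD level between 84.9% and 108% of NC.

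MXI1 is a further MXD repressor that counters MYC. It spans 120643691 to 120722632 of chromosome 14 (plus strand). Its abundance was 586, 632 and 679 in the NC replicates and 498, 609 and 577 in the KD replicates. KD replicates 1 and 3 were below all NC libraries, and KD replicate 2 was not. NC embryos averaged 632 ± 46.3 and KD embryos 561 ± 57.4 (mean ± SD, n = 3 each). Its log2 fold change of -0.17 (standard error 0.12, 95% confidence interval -0.42 to 0.08) was the lowest among the 6 well expressed members, with an unadjusted limma p of 0.161 and an adjusted p of 0.997.

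MNT (ENSSSCG00000037159), a broadly expressed MAX partner that restrains MYC in dividing and resting cells alike, lies on chromosome 12 from 48469230 to 48486737 on the minus strand. Its abundance was 293, 329 and 364 in the NC replicates and 361, 327 and 345 in the KD replicates. All KD values lay inside the NC range, and the log2 fold change was 0.07 (95% confidence interval -0.21 to 0.35).

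MGA (ENSSSCG00000004739), which carries a T-box besides its MAX pairing region, lies on chromosome 1 from 129590645 to 129697434 on the minus strand, with the longest mRNA of the network at 13.7 kb. Its abundance was 409, 385 and 400 in the NC replicates and 405, 392 and 383 in the KD replicates. The SD was 3.11% of the mean in NC and 2.83% in KD embryos, so this was among the steadiest members. The log2 fold change was -0.02 (95% confidence interval -0.27 to 0.23).

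MXD3 (ENSSSCG00000014041), the MXD protein linked to dividing cells, was near the lower limit of the test. It spans 80636778 to 80641346 of chromosome 2 (plus strand). Its abundance was 16.7, 11.7 and 9.37 in the NC replicates and 16.6, 16.6 and 9.85 in the KD replicates, and each KD value lay within the NC range. Divided by the value of 1 read in each library, these are about 16, 8 and 11 reads in NC and 17, 23 and 9 reads in KD. The log2 fold change was 0.17 with a wide 95% confidence interval of -0.83 to 1.18. The interval runs from 56.1% to 227% of the NC level, and the data do not resolve a difference within this range.

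MXD4 (ENSSSCG00000008687) was the lowest member and was not tested because its mean was below 10. It lies on chromosome 8 from 1203163 to 1216807 on the minus strand. Its abundance was 8.46, 8.92 and 2.47 in the NC replicates and 3.92, 0.737 and 1.07 in the KD replicates. The reads behind these values were about 8, 6 and 3 in NC and 4, 1 and 1 in KD. KD replicates 2 and 3 were below all NC libraries, and KD replicate 1 was above NC replicate 3. Without a filter on low values, limma gave a log2 fold change of -1.40 (95% confidence interval -2.83 to 0.03), with an unadjusted p of 0.0546 and an adjusted p of 0.994.

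The activating members were scarce. MYC (ENSSSCG00000005965), on chromosome 4 from 12455141 to 12460360 on the minus strand, had an abundance of 3.14, 14.7 and 5.08 in the NC replicates and 6.82, 6.51 and 2.18 in the KD replicates. This came to about 3, 10 and 6 reads in NC and 7, 9 and 2 reads in KD libraries. NC replicate 2, the shallowest library, was the highest and KD replicate 3 the lowest. MYC was below the limit for the test. Without that limit its log2 fold change was -0.36 with a 95% confidence interval of -1.73 to 1.01, and the data do not resolve a difference within this range. Its sign turned without NC replicate 2 (0.19) and without KD replicate 3 (0.063).

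MYCN (ENSSSCG00000008618), on chromosome 3 from 121543201 to 121549678 on the minus strand, had an abundance of 18.8, 36.5 and 30.8 in the NC replicates and 8.76, 21.5 and 19.8 in the KD replicates. KD replicate 1 was the lowest of the 6 libraries, but KD replicates 2 and 3 were above NC replicate 1. About 18, 25 and 36 reads lay behind the NC values and 9, 30 and 18 reads behind the KD values. NC embryos averaged 28.7 ± 9.07 and KD embryos 16.7 ± 6.93 (mean ± SD, n = 3 each). Its log2 fold change of -0.79 (standard error 0.43, 95% confidence interval -1.70 to 0.12) was the largest in size among the tested members, with an unadjusted limma p of 0.0849 and an adjusted p of 0.997. An exact two-sided permutation test of MYCN gave p = 0.3, and over the 10 members the exact p ranged from 0.2 to 0.9, where 0.1 is the lowest value that the design can give.

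**Figure D2:**
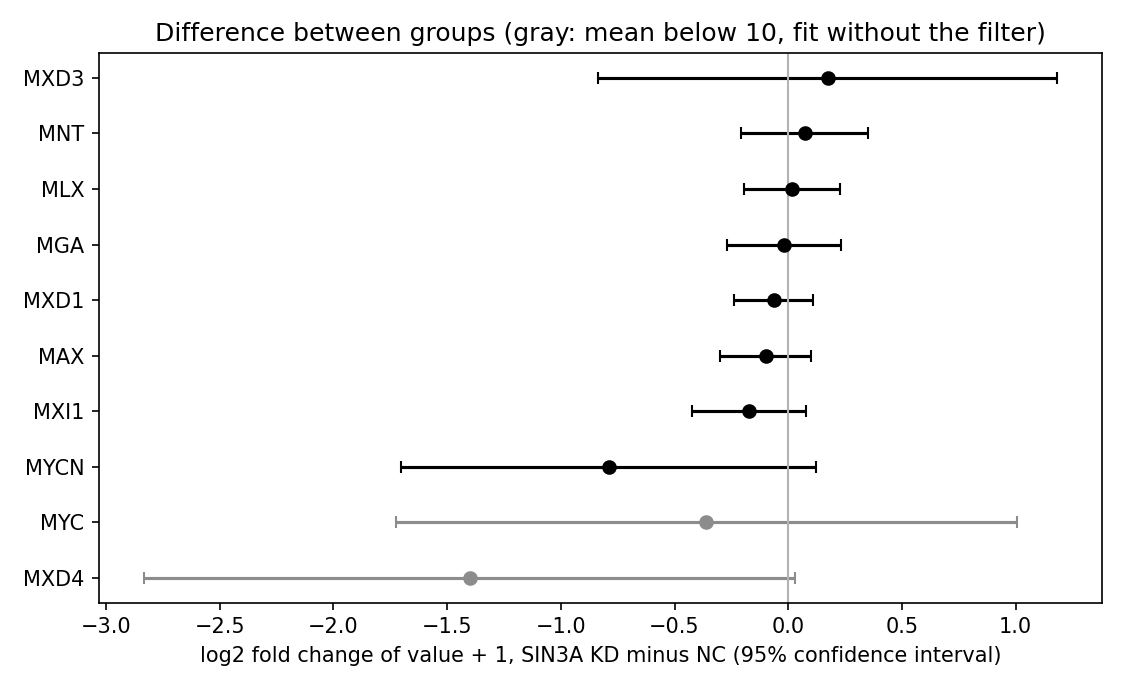
Log2 fold change of value + 1 (x axis, SIN3A KD minus NC) of each member with its 95% confidence interval from limma. Black points are the 8 tested members and gray points, MYC and MXD4, come from the fit without a filter on low values. All 10 intervals include 0, and those of MXD1, MAX, MLX, MGA, MNT and MXI1 are narrow.

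To compare levels between genes, each value was divided by the length of the longest RefSeq mRNA in kb. On this scale MXD1 stood first in NC embryos at 3028 ± 92.2 per kb (SD, n = 3), above 99.4% of 14081 genes with a length. MLX followed at 1160 ± 136 and MAX at 878 ± 72.2, above 96.9% and 95.5% of genes. MXI1 was at 155 ± 11.3, MNT at 66.5 ± 7.24 and MGA at 29.0 ± 0.904 per kb. MYCN at 9.15 ± 2.89, MXD3 at 7.25 ± 2.15, MYC at 3.10 ± 2.51 and MXD4 at 1.76 ± 0.956 per kb came last.

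From MXD1 down to MYCN, no neighbours in this order overlapped in their 3 replicates in NC or KD embryos, so these steps were larger than the spread between libraries. The smallest of them was between MLX and MAX, at a ratio of 1.32 in NC. MYCN and MXD3 overlapped in both groups, as did MYC and MXD4, and MXD3 and MYC overlapped in NC alone. The rank was the same in NC and KD for 8 of the 10 members, and MYCN and MXD3 changed places. Which isoform was present was not measured, and the length of the expressed mRNA may differ from the longest one.

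**Figure D3:**
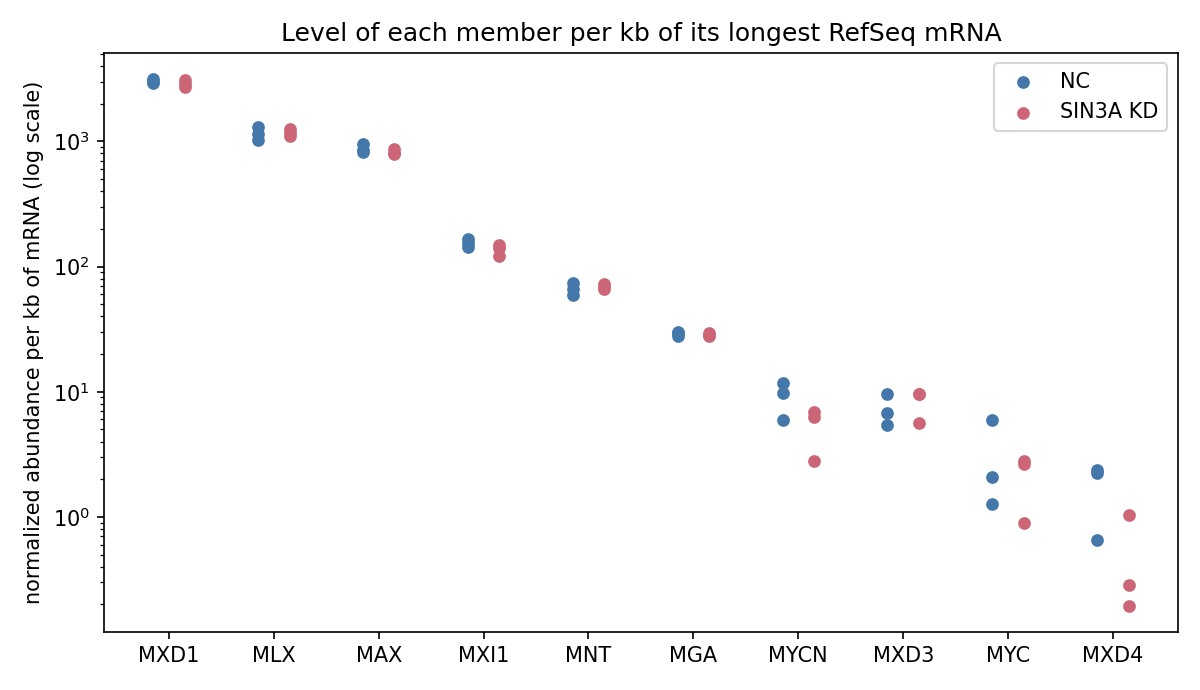
Normalized abundance per kb of the longest RefSeq mRNA (log y axis) for each member, ordered by its NC mean, with 3 NC and 3 SIN3A KD replicates as points. MXD1, MLX and MAX lie at or above 787 per kb in all libraries, and MYCN, MXD3, MYC and MXD4 lie below 12.

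The partners of MAX were then set side by side in each library. The MXD, MNT and MGA transcripts summed to 3372, 3204 and 3287 per kb in NC and 3114, 2964 and 3362 per kb in KD replicates 1 to 3. MXD1 alone made up 91.4% to 92.7% of this sum in the 6 libraries. The sum of MYC and MYCN was 7.25, 17.6 and 11.9 per kb in NC and 5.56, 9.51 and 7.18 per kb in KD replicates. The repressor sum was thus 182 to 465 times the MYC and MYCN sum in NC and 312 to 560 times in KD libraries, and these ranges overlapped. The ratios are approximate, because about 2 to 36 reads per gene and library lay behind MYC and MYCN. MYCL is not a listed member and was left out of the sum, at a mean abundance of 8.55 in NC and 13.4 in KD embryos. MXD1 was 3.26 to 3.66 times as abundant per kb as MAX in NC and 3.14 to 3.96 times in KD libraries.

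The 5 members with a SIN3 interaction domain, MXD1, MXD3, MXD4, MXI1 and MNT, summed to 3343, 3176 and 3258 per kb in NC and 3085, 2936 and 3334 per kb in KD replicates 1 to 3. Relative to SIN3A this was 0.511, 0.534 and 0.574 in NC and 5.38, 15.5 and 4.56 in KD libraries. The sum of the 5 members overlapped between the groups, and SIN3A, below the line of this ratio, is the targeted transcript. KD replicate 2 had the least SIN3A and the highest ratio. These are transcript levels, and protein was not measured in these libraries.

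**Figure D4:**
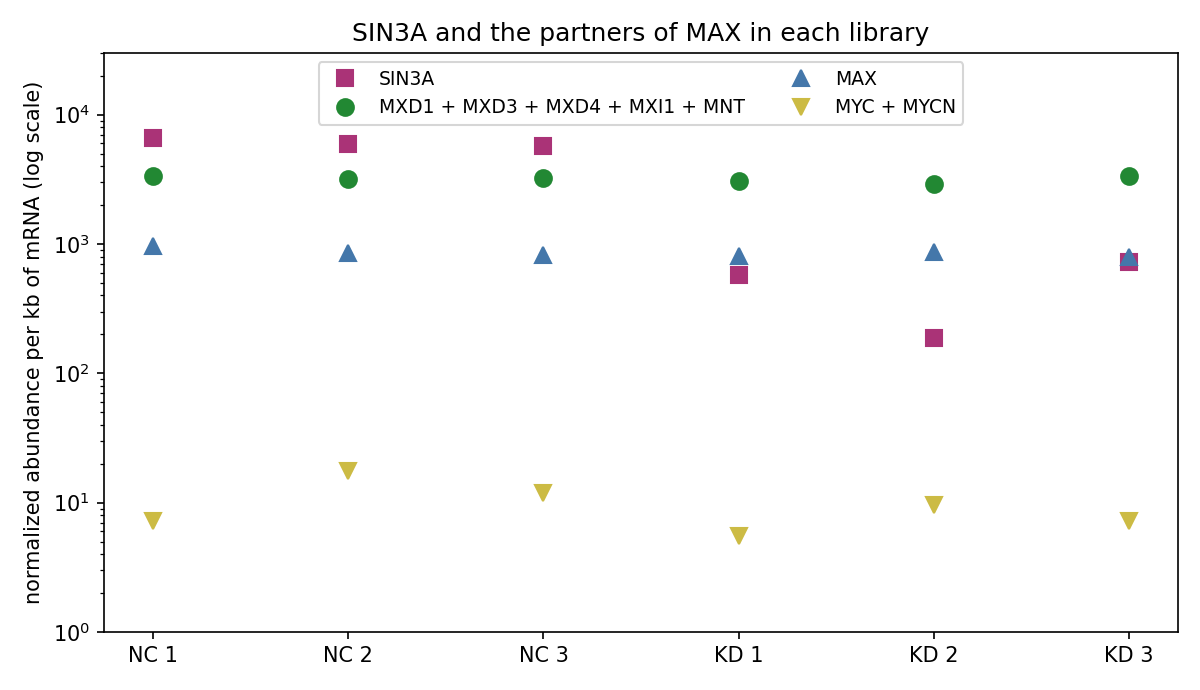
Abundance per kb of mRNA (log y axis) of SIN3A, of the summed SIN3A-binding members, of MAX and of MYC plus MYCN in each of the 3 NC and 3 KD libraries (x axis). SIN3A lies above the summed binding members in NC and below them in KD, while the other 3 series overlap between the groups.

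Genes were also ranked by how close their values lay to those of MAX and of MYCN. Over the 6 libraries, the root mean square difference of gene-centred log2(value + 1) from MAX was smallest for GORASP2 at 0.021, TMEM70 at 0.023 and OTULIN at 0.025, among 11985 genes. For MYCN it was smallest for COL6A3 at 0.17, followed by ENSSSCG00000015645 at 0.21 and DUSP27 at 0.22. These distances are a description, with no test, and shared regulation was not tested.

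Other genes of the network and its surroundings were taken from lists set up by function. The authors write that the porcine genome is generally held to be transcriptionally silent at the 2-cell stage. Levels of the target genes below may therefore not report on network activity, which was not tested. Among MYCL, MLXIP, MLXIPL and the MLX targets TXNIP and ARRDC4, 0 passed the adjusted p in limma and 1, TXNIP, had an unadjusted p below 0.05. Over all tested genes, 4.61% had such a p and 9.79% had groups that did not overlap. TXNIP, an arrestin-like regulator of glucose uptake that MLX and MLXIP activate, had an abundance of 74.98, 70.1 and 54.0 in the NC replicates and 51.5, 28.7 and 46.2 in the KD replicates. All KD values lay below all NC values. In limma the log2 difference was -0.67 (standard error 0.28), with an unadjusted p of 0.0287 and an adjusted p of 0.997. ARRDC4, a second target of the same pair, had a log2 fold change of -0.10. MLXIP itself averaged 1670 ± 45.8 in NC against 1719 ± 29.0 in KD (SD, n = 3 each), and its lowest KD value, 1699, was just above its highest NC value, 1698. MLXIPL, a carbohydrate response factor that MLX also serves, had a log2 fold change of 0.03. MYCL, the third MYC gene, was at 8.34, 8.77 and 8.55 in NC and 13.6, 10.1 and 16.5 in KD replicates, with no overlap between the groups. Its mean of 8.55 in NC was below the limit of 10 and that of 13.4 in KD above it. It thus entered the test only through its KD values, so the lack of overlap is a description of a low gene. Its log2 fold change was 0.57 (95% confidence interval -0.50 to 1.63).

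Of the partners of MGA in its Polycomb complex, 10 were tested and 0 passed the adjusted p or an unadjusted p below 0.05 in limma, with a median log2 fold change of -0.05. PCGF6, the subunit that defines this complex, had the lowest unadjusted p of the list, 0.0750, with a mean of 517 ± 120 in NC against 416 ± 48.2 in KD (SD, n = 3 each). TFDP2, a dimer partner of E2F factors, had a log2 fold change of -0.19. Of the germline genes that MGA and MAX silence in other cells, 10 were tested, 0 passed either threshold in limma, and the median was -0.11. MAEL, which takes part in transposon silencing, had a log2 fold change of -0.25, and HORMAD1, a protein of the meiotic chromosome axis, one of 0.42. Both had overlapping groups.

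Of 12 tested cofactors of MYC, 0 passed either threshold in limma, and the median log2 fold change was -0.01. KAT2A, a histone acetyltransferase, had a mean of 2038 ± 161 in NC against 2283 ± 92.4 in KD (SD, n = 3 each), which is 0.17 higher on the log2 scale. EP400, a chromatin remodelling ATPase, had a log2 fold change of -0.33.

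Of 12 tested genes that set the turnover of MYC protein, 0 passed the adjusted p in limma and 2 had an unadjusted p below 0.05, both with higher means in KD embryos. PPP2R5A, a regulatory subunit of protein phosphatase 2A that favors MYC degradation, had an abundance of 277, 321 and 269 in the NC replicates and 428, 329 and 396 in the KD replicates. GSK3B, the kinase that marks MYC for FBXW7, had an abundance of 366, 297 and 300 in the NC replicates and 388, 403 and 427 in the KD replicates. The groups did not overlap for either gene, as in 9.79% of all tested genes, and both were named for their low p. Their log2 fold changes were 0.40 and 0.34, with adjusted p values from limma of 0.852 and 0.971. An unadjusted p below 0.05 in limma was found for 4.61% of all tested genes. Of the 12 genes, 10 had a positive log2 fold change, with a median of 0.05 against 0.0026 over all tested genes. Whether the list moved as a set was not tested.

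Of 25 tested genes known to be activated by MYC, 0 passed the adjusted p in limma and 2 had an unadjusted p below 0.05, in opposite directions. Over all tested genes, 4.61% had such a p. UBTF, a ribosomal DNA transcription factor, had a mean of 1286 ± 60.2 in NC against 1559 ± 90.4 in KD (SD, n = 3 each), or 0.28 higher on the log2 scale (adjusted p = 0.852). HSPE1, a mitochondrial cochaperonin, had a mean of 2176 ± 182 in NC against 1658 ± 390 in KD (SD, n = 3 each), or -0.42 on the log2 scale (adjusted p = 0.849). The median of the 25 genes was -0.01, with 11 positive and 14 negative. Of 7 tested genes known to be repressed by MYC, 0 passed either threshold in limma, and the median was -0.16. CDKN2B, an inhibitor of G1 cyclin-dependent kinases, had a log2 fold change of -0.20 and GADD45B, a stress response gene, one of 0.79 at a mean of 13.3 in NC and 22.7 in KD embryos.

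**Figure D5:**
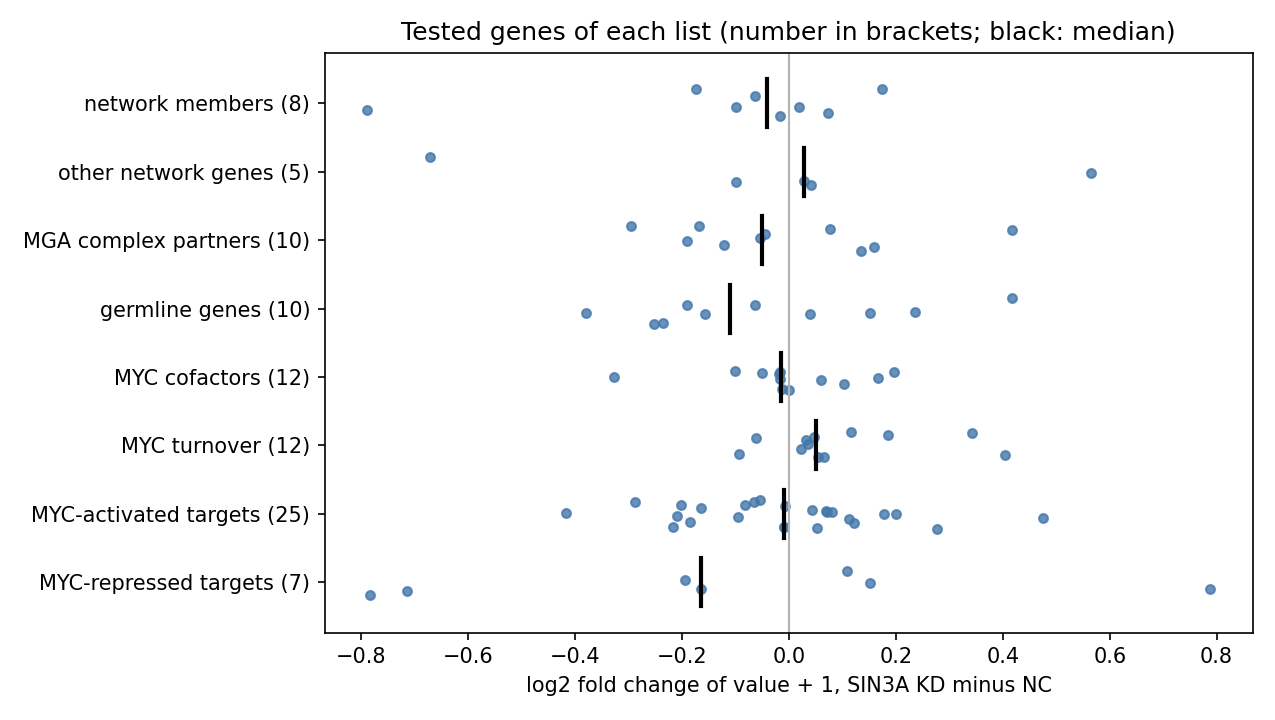
Log2 fold change of value + 1 (x axis, SIN3A KD minus NC) of every tested gene in the network and in 7 related gene lists, 1 point a gene, with the median of each list as a black line. The medians, the network included, lie between -0.16 and 0.05, and the points spread to both sides of 0 in every list.

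On the SIN3A side of the link, 7 genes were tested and 1, SIN3A itself, passed the adjusted p in limma with a log2 fold change of -3.81 (adjusted p = 8.4e-06). Its call was lost without the variance trend and under robust empirical Bayes, at adjusted p values of 0.423 and 0.469, with the same log2 fold change. SUDS3, a subunit that holds deacetylases in the SIN3 complex, was at 9452, 8491 and 8004 in the NC replicates and 10498, 10965 and 9908 in the KD replicates, with no overlap. In limma the SUDS3 difference was 0.28 on the log2 scale (standard error 0.09) at an adjusted p of 0.679, and it passed at an adjusted p of 0.0213 when a GC and length correction was joined with the replicate number as a block. In the oocyte marker list, 0 of 10 tested genes passed either threshold in limma, and BMP15 had a log2 fold change of 0.13 and H1FOO one of -0.10. In the cumulus and granulosa list, 0 of 5 tested genes did, and INHBA had one of -0.66 and VIM one of -0.31. The groups overlapped in BMP15, H1FOO, INHBA and VIM. The 5 tested cumulus and granulosa genes ranged from -0.66 to 0.43, with 2 positive and 3 negative. INHBA averaged 14.9 in NC and 9.38 in KD, below the limit of 10 in KD.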

How the data were processed

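The authors quantified 6 poly(A) libraries with Salmon 0.14.1 against Sscrofa11.1, and used DESeq2 for differential expression. They deposited the signal of each Ensembl gene in 1 table. The libraries share nearly one scale, but the scaling step is not given in the sources used here. The values are not whole reads, so no count test was run. Strandedness of the counting is not given in the sources used here, so reads from an antisense transcript could be counted with the gene.

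Testing was limited to genes that averaged 10 or more. Their log2(value + 1) was fitted with limma 3.58.1 (R 4.3.3), using a variance trend and Benjamini-Hochberg adjustment, and single genes with the exact permutation test of scipy 1.17.1. Fold changes on this scale understate those of low genes. The authors describe 3 independent replicates, but whether these came from separate oocyte batches is not given. The p-values thus reach no further than these samples. In limma the variance of each gene is also drawn toward the trend over all genes, so it is not the spread of that gene alone. The value of 1 read was the gap between the 2 most frequent values of a library, and depth was the sum of values over it. Since 23.5% to 52.0% of low values lay within 0.02 read of a whole number, these read numbers are approximate. Counting error limits members below 10. The fit was tested on simulated data with large changes in well expressed genes only, so that test does not cover low members or small differences.

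The members and lists were chosen with earlier results of these data known. Named genes are all members, SIN3A, called genes and the 2 genes of lowest p in each list, and the 3 genes nearest to MAX and to the tested member with the largest change. ARRDC4, MLXIP and MLXIPL lie outside this rule and PTX3 too, and they were added after their values were seen. Coordinates, mRNA lengths and sequences come from the RefSeq annotation of the same build, Sscrofa11.1, and MXI1 was matched through a table of Ensembl identifiers and symbols. Alternatives were other pseudocounts, filters, scalings, variance models, a GC and length correction, a replicate block and leaving out each library. The spike-in mRNAs were not used here, so changes of total mRNA per embryo were not assessed.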

Additional observations from a re-analysis of the deposited data

How the results depend on the processing

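The count of network members called at an adjusted p below 0.05 was 0 under each of the 17 alternatives. Reads per library limit what can be seen of MXD3, MXD4, MYC and MYCN. The count over all tested genes was 19. It was 0 without the variance trend, with 622 genes at an unadjusted p below 0.05, 35 with the GC and length correction, and 57 with that correction and the replicate block. With the replicate block alone it was 26, and it ranged from 11 to 19 when single libraries were left out, with 12 without NC replicate 2 and without NC replicate 3 and 11 without KD replicate 2. On the SIN3A side, the count of 1 became 0 under a constant prior variance (no trend) and under robust empirical Bayes, where the adjusted p of SIN3A was 0.423 and 0.469, and 2 with the GC and length correction and the replicate block, where SUDS3 joined with an adjusted p of 0.0213 (0.0213 to 0.99998 over its alternatives). The cause was not tested. Same-numbered NC and KD libraries had correlations of 0.109, 0.111 and 0.0872 after subtraction of group means, each the highest of its library, so the numbers hint at a pairing in the data that the labels do not state. The order per kb was the same for all 10 members with median mRNA lengths. Leaving out single libraries gave log2 fold changes of -0.0043 to 0.40 for MXD3, -0.0079 to 0.15 for MNT, -0.042 to 0.0027 for MGA, -0.065 to 0.10 for MLX, -1.06 to -0.41 for MYCN, -0.77 to 0.19 for MYC and -1.89 to -1.11 for MXD4, and MNT was at -0.016 in both fits that corrected for GC and length. MXD4 was at -0.47 with a pseudocount of 10. The unadjusted p of MYCN was lowest, 0.0391, with the GC and length correction and the replicate block, at an adjusted p of 0.668 (0.668 to 0.99998 over its alternatives).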
